A study of Mus musculus with 12 samples.

Results

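The genes described are the numbered zinc finger protein genes of the mouse Zfp series. They were chosen by symbol (Zfp followed by digits alone) and on a mean TPM of 5 or more over the 12 libraries, TPM being the length-scaled share of a library's transcripts. That rule found 180 genes of the 374 such symbols, among 35385 gene symbols in all, and its level is a description rather than a result. RNA had been sequenced from oligodendrocyte progenitor cells (OPCs), which give rise to the glia that myelinate axons in the brain and spinal cord, made in culture from mouse pluripotent stem cells. After 1 h of attachment in a medium that permits differentiation, the cells received the vehicle dimethyl sulfoxide or 1 of 3 quaternary ammonium compounds for 4 h. The first was cetylpyridinium chloride (CPC), in which a long alkyl chain sits on a pyridinium ring. The next, abbreviated AEBDAC, was C12-C14-Alkyl(ethylbenzyl)dimethylammonium chloride, with an aromatic benzyl group beside its long chain. The last was methyltrioctylammonium chloride (MTOAC), a tetraalkyl compound without a ring. Each was given at its own IC75, the concentration that inhibits by 75%, so that doses differed between compounds, and the concentrations are not stated in the labels. Each of the 4 groups held 3 libraries, and nothing in the labels says that these were separate cultures. The p-values therefore measure the spread between libraries, which may be technical.

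Most Zfp genes encode proteins with arrays of C2H2 zinc fingers, loops held by a zinc ion that read DNA bases in the major groove. Many carry a KRAB domain, which recruits the co-repressor TRIM28 and, through it, the histone methyltransferase SETDB1 and heterochromatin protein 1; such proteins silence retroelements and keep imprinted loci methylated. Others have no KRAB domain and act at promoters, on RNA or on ribosomes, and a few, such as Zfp24 and Zfp488, are known from oligodendrocyte differentiation and myelination.

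The promoters below show the starts of 4 genes to which the comparisons return: Zfp46, lower with both AEBDAC and MTOAC; Zfp691, which had the lowest fold change with MTOAC; Zfp445, a KRAB protein that keeps imprints; and Zfp131, the 1 member called higher. Each runs from 250 bases before to 50 bases after the first listed RefSeq transcript start, 5′ to 3′ on the gene's strand (GRCm38.p6), and capitals mark matches to the motifs named after them.

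Zfp46 (chr4:136284426-136284725, plus strand): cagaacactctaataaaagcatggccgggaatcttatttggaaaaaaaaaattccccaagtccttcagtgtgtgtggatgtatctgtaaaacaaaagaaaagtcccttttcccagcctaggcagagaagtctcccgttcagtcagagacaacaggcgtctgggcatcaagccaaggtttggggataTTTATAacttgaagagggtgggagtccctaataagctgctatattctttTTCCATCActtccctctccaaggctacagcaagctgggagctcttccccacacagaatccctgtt

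Zfp691 (chr4:119174146-119174445, minus strand): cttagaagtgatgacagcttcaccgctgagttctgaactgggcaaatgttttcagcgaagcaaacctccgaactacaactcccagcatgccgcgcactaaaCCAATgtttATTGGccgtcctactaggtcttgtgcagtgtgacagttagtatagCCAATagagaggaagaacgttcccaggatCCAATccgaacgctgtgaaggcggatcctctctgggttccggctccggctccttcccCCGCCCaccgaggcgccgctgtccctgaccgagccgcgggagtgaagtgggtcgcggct

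Zfp445 (chr9:122865957-122866256, minus strand): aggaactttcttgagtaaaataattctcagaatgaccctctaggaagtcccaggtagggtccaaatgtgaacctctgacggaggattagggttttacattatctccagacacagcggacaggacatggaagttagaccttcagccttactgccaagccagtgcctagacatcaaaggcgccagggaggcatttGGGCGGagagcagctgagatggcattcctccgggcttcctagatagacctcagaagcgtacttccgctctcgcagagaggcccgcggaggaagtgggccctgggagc

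Zfp131 (chr13:119790683-119790982, minus strand): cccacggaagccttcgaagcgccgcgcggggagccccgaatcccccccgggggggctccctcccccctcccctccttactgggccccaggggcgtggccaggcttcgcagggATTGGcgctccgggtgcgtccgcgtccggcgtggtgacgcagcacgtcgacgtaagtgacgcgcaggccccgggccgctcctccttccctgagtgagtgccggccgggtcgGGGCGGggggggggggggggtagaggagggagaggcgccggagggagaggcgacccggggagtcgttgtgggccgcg

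In the Zfp46 promoter the capitals were a TATA box (TATAAA) and a C/EBP-ATF motif (TGATGNAA), both on the reverse strand. Zfp691 held 4 CCAAT boxes (CCAAT) and a GC box (GGGCGG), Zfp445 a GC box, and Zfp131 a CCAAT box and a GC box. G and C made up 45.3% of the Zfp46 window with 3 CG steps, and 76.7% of the Zfp131 window with 36 CG steps. Promoters were found for 144 of the 180 members, and both strands were searched for 9 motifs; the matches in the 4 printed windows did not overlap each other. The GC box was in 47.9% of member promoters, in 69.2% of those of other genes averaging 5 TPM or more and in 35.9% of all promoters of this length. The CCAAT box was in 45.1%, 39.6% and 37.9%, and the ETS motif CCGGAAG in 22.2%, 21.1% and 9.12% of the same sets. The E box CACGTG was in 3.47%, 10.7% and 7.24%, TGATGNAA in 0.694%, 1.91% and 4.06%, and the TATA box in 8.33%, 5.88% and 14.2%. The other 3 motifs, the cAMP element TGACGTCA, the YY1 motif AAGATGGCG and the NRF1 motif, were in 2.08%, 3.47% and 9.72% of member promoters, against 3.64%, 4.05% and 12.9% of those of the other genes of 5 TPM and 1.88%, 1.49% and 4.78% of all promoters. Median G and C content was 55.7% in members, 62.0% in the other genes of 5 TPM and 52.7% in all promoters. These are matches of letters, not measured sites.

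Members were mostly modest in level. Their means ran from 5.07 to 107 TPM with a median of 11.9 TPM; 73 lay between 5 and 10 TPM, 60 between 10 and 20, 36 between 20 and 50, and 11 above 50. Of the Zfp symbols, 48.1% reached the 5 TPM limit, against 23.0% of other symbols. All 180 were above 0 in every library and all passed the filter of the test (1 TPM or more in 3 libraries or more). The median ratio of a member's highest to its lowest library was 2.17. Just inside the limit lay Zfp760 (mean 5.12 TPM), Zfp235 (5.11) and Zfp748 (5.07), and just outside it Zfp959 (4.95), Zfp507 (4.93) and Zfp946 (4.87).

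The 5 most abundant members, by mean TPM, were Zfp706 (107), Zfp219 (76.8), Zfp146 (75.2), Zfp664 (62.9) and Zfp637 (62.9). None of them was called in any comparison with vehicle. Zfp706, a small protein with a single zinc finger, had 80.7, 120 and 125 TPM in the vehicle libraries, 103, 112 and 122 with CPC, 122, 94.9 and 139 with AEBDAC, and 95.5, 91.4 and 79.1 with MTOAC. Its first vehicle library lay below the other vehicle libraries, and all groups overlapped with vehicle. Zfp664 had 81.0, 65.2 and 75.7 TPM with vehicle and 56.6, 50.6 and 58.8 with MTOAC. Those groups did not overlap, with a difference of -0.41 ± 0.11 log2 (SE, n = 3 libraries a group) and an adjusted p of 0.0547 in limma.

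The libraries differed in ways that bear on these values. Summed over the members, the vehicle libraries held 3874, 3438 and 3443 TPM, the CPC libraries 3052 to 3093, the AEBDAC libraries 2964 to 3216 and the MTOAC libraries 2666 to 3100. As a share of each library's total this was 0.432% to 0.501% with vehicle and 0.340% to 0.409% in the 9 compound libraries, with no overlap. Vehicle library 1 stood apart: mt-Nd3, a mitochondrially encoded gene, was listed at 0 there and at 8716 to 13261 TPM elsewhere, its mitochondrially encoded sum was 86422 TPM against 147539 to 183001, and it correlated across genes less well with the rest of the libraries (0.917 on average, against 0.935 to 0.957). It had the highest vehicle value for 117 of the 180 members (65.0%) and for 59.5% of all tested genes. MTOAC library 3 had the next-lowest correlation (0.935). The 9 fixed OPC markers summed to 2057 to 2411 TPM with vehicle, 1636 to 1782 with CPC, 1491 to 1798 with AEBDAC and 1296 to 1423 with MTOAC. Olig1 was the largest part of this sum (1016 to 1284 TPM with vehicle, 455.7 to 613.2 with MTOAC). Not every OPC marker was lower: Ptprz1 had 266.5 to 397.1 TPM with vehicle and 278.8 to 415.2 with MTOAC. The 6 myelinating markers summed to 52.7 to 74.0 TPM with vehicle, 37.3 to 51.4 with CPC, 36.3 to 51.6 with AEBDAC and 35.4 to 47.1 with MTOAC. Most of that sum was Cnp (48.1 to 59.8 TPM with vehicle, 32.1 to 36.4 with MTOAC), and Mog was at 0 throughout. Of the 4 pluripotent cell markers, Pou5f1 was listed at 7.84 TPM in vehicle library 1, at 9.64 TPM in MTOAC library 3 and at 0 in the other 10 libraries, and the other markers stayed under 1 TPM in every library. All 5 microglial and all 4 mesenchymal markers were under 1 TPM throughout, the 4 astrocyte markers summed to 9.11 to 25.3 TPM and the 4 neuron markers to 24.9 to 40.5 TPM. The part of these differences in the results on Zfp genes was not tested, and in such bulk RNA fewer cells of a type and less RNA per cell cannot be told apart.

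**Figure D1:**
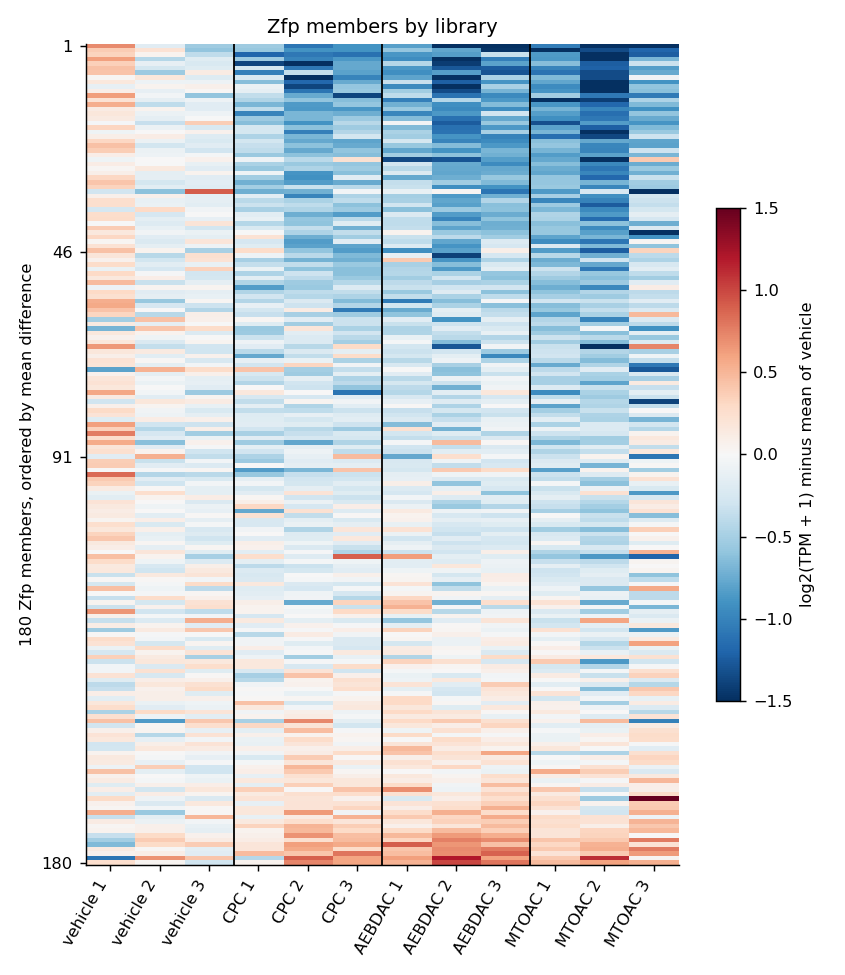
Each row is 1 of the 180 Zfp members and each column 1 of the 12 libraries; colour is log2(TPM + 1) minus the mean of the 3 vehicle libraries (blue lower, red higher, colours saturating at 1.5). Rows are ordered by the mean difference over the 9 compound libraries, and this order places the blue rows at the top. Fold changes were negative for 75%, 70.6% and 81.1% of members with CPC, AEBDAC and MTOAC. Of all tested genes 71.0%, 67.0% and 71.7% were negative, and the 3 comparisons share the vehicle libraries.

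With CPC, no single member passed the test, though most values lay below vehicle. Fold changes were negative for 135 of 180 members (75%; 71.0% of the 12009 tested genes), and their median was -0.21 log2 against -0.17 for all tested genes and -0.16 for the 8048 other genes averaging 5 TPM or more. At an adjusted p under 0.05 in limma, 0 members were called lower and 0 higher, where 0.0333% of all tested genes were called lower and 0.0333% higher. At an unadjusted p under 0.05, 38 members were lower (21.1%), beside 11.8% of all tested genes and 13.3% of those other genes of 5 TPM. Because same-numbered vehicle and CPC libraries deviated together, a fit with the replicate number as a block also applies. It called 4 members lower, Zfp967 (-1.28 log2, adjusted p = 0.0451), Zfp46 (-0.70, 0.0304), Zfp251 (-0.60, 0.0451) and Zfp646 (-0.59, 0.0479), and 0 higher, beside 1.25% of all tested genes called lower and 0.283% higher. Zfp967 had 38.0, 26.8 and 24.9 TPM with vehicle and 10.7, 8.38 and 16.8 with CPC. All of its 31-base windows occur in other genes (100% shared), so that its reads cannot be assigned to it alone.

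With AEBDAC, 3 members fell and 0 rose: Zfp646, Zfp46 and Zfp251. This was 1.67% of members, beside 0.883% of all tested genes and 1.18% of the other genes of 5 TPM called lower and 0.391% of all tested genes called higher. Zfp251 had 20.9, 18.4 and 18.9 TPM with vehicle, 12.8, 12.3 and 12.1 with CPC, 13.2, 12.3 and 11.3 with AEBDAC, and 10.4, 10.7 and 11.6 with MTOAC. Every compound library lay below every vehicle library, and the difference with AEBDAC was -0.62 ± 0.13 log2 (SE, n = 3 libraries a group; adjusted p = 0.0442, limma). Zfp46 had 55.6, 52.7 and 45.1 TPM with vehicle, 39.1, 27.7 and 27.3 with CPC, 34.4, 25.7 and 26.3 with AEBDAC, and 31.1, 25.5 and 26.8 with MTOAC. Here too no compound library reached a vehicle library, and the difference with AEBDAC was -0.81 ± 0.17 log2 (adjusted p = 0.0479, limma). Zfp646 had 25.2, 20.8 and 22.8 TPM with vehicle, 15.4, 13.9 and 15.4 with CPC, 14.2, 9.95 and 13 with AEBDAC, and 11.6, 10.4 and 13.2 with MTOAC. It also separated fully, at -0.85 ± 0.16 log2 with AEBDAC (adjusted p = 0.0380, limma), but its exons overlap those of Prss53 and Zfp668 on the other strand, and the library kit is not described as marking strand. Over all members, 127 fold changes were negative (70.6%, beside 67.0% of tested genes), and the median was -0.22 log2 against -0.16 for all tested genes. At an unadjusted p under 0.05, 48 were lower (26.7%), beside 15.2% of tested genes and 16.9% of the other genes of 5 TPM. Leaving out 1 library ended all 3 calls in 5 of 6 fits, and without AEBDAC library 1 Zfp46 and Zfp646 were called. Of all tested genes, 0.0250% to 0.208% were called lower in those 5 fits and 0.658% without AEBDAC library 1.

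With MTOAC, 19 members fell and 1 rose. Called lower were 10.6% of members, beside 5.75% of all tested genes and 7.05% of the other genes of 5 TPM, and 0.791% of all tested genes were called higher. At an unadjusted p under 0.05, 59 members were lower (32.8%), beside 21.0% of tested genes and 23.5% of the other genes of 5 TPM. Fold changes were negative for 146 of 180 (81.1%; 71.7% of tested genes), with a median of -0.29 log2 against -0.22 for all tested genes and -0.20 for the other genes of 5 TPM. The excess of calls depended on single libraries: without vehicle library 1, the one that stood apart, 2 members were called lower (1.11%; Zfp251 and Zfp646), beside 2.06% of all tested genes. Without vehicle libraries 2 and 3 in turn the count was 4 and 8 (2.22% and 4.44% of members, beside 2.32% and 2.35% of all tested genes). Without MTOAC libraries 1, 2 and 3 it was 4, 1 and 15 (2.22%, 0.556% and 8.33%, beside 1.93%, 0.991% and 4.38%). After quantile normalization 5 were lower and 2 higher, beside 1.81% and 1.77% of all tested genes.

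**Figure D2:**
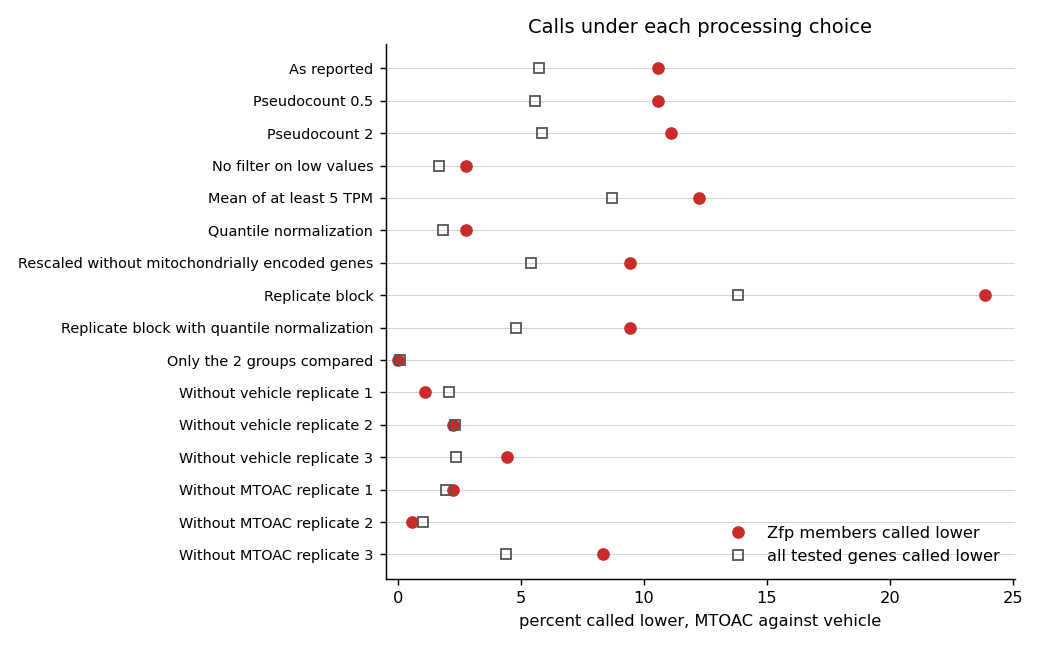
Percent of the 180 Zfp members (red points) and of all tested genes (open squares) called lower with MTOAC under each processing choice, at an adjusted p under 0.05. The members stand at 10.6% and all genes at 5.75% as reported, and at 1.11% and 2.06% without vehicle library 1.

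The level rule favours members that were high with vehicle. Over the 9 compound libraries alone, 12 of the 180 members averaged under 5 TPM and so passed the rule only through vehicle, while 0 averaged under 5 TPM with vehicle. Of these 12, 4 are among those called lower with MTOAC: Zfp691 (10.4 TPM on average with vehicle and 3.74 over the compound libraries), Zfp882 (10.2 and 4.41), Zfp810 (9.49 and 4.43) and Zfp329 (9.17 and 4.52). Their lower values are in part fixed by the choice of members. All 12 are counted, with every compound, in the shares of members that were lower, negative or without overlap, and in the members' medians. This also holds for the values by level and by exonic length below. Those shares and medians are in part fixed in the same way.

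The member with the lowest fold change with MTOAC was Zfp691 (chromosome 4, positions 119169513 to 119174195, GRCm38), whose promoter with 4 CCAAT boxes is printed above. It had 16.4, 8.48 and 6.35 TPM with vehicle, 6.36, 4.02 and 4.72 with CPC, 5.06, 2.76 and 2.02 with AEBDAC, and 4.18, 2.68 and 1.85 with MTOAC. Its first vehicle library was far above the others, and the MTOAC libraries all lay below vehicle (-1.49 ± 0.37 log2, SE, adjusted p = 0.0392, limma). Zfp882 followed with 13, 11.4 and 6.10 TPM with vehicle and 2.69, 3.23 and 3.72 with MTOAC (-1.36 ± 0.30 log2, adjusted p = 0.0276, limma). Its exons share a strand with exons of Zfp617, so the reads of the pair may have been split between them. Zfp276 had 14.1, 11.5 and 8.23 TPM with vehicle and 5.70, 3.12 and 4.13 with MTOAC (-1.21 ± 0.25 log2, adjusted p = 0.0213, limma). Exons of the DNA repair gene Fanca and of Vps9d1 lie across it on the other strand, so its value is uncertain too.

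Zfp462 and Zfp521 are members with known roles in neural development. Zfp462, a large zinc finger protein that acts in heterochromatin and is needed for normal neural development, had 58.1, 45.6 and 47.3 TPM with vehicle, 36.5, 33.0 and 31.7 with CPC, 24.1, 37.1 and 27.2 with AEBDAC, and 17.2, 18.2 and 36.2 with MTOAC. No compound library reached a vehicle library, although the third MTOAC library was about as high as the highest CPC and AEBDAC libraries, and the difference with MTOAC was -1.12 ± 0.25 log2 (adjusted p = 0.0304, limma). Zfp521, a transcription factor that promotes neural fate, had 20.9, 10.5 and 12.3 TPM with vehicle, 8.28, 7.31 and 9.02 with CPC, 8.07, 6.88 and 8.5 with AEBDAC, and 7.14, 5.61 and 8.47 with MTOAC. All 9 compound libraries lay below the lowest vehicle library (-0.91 ± 0.24 log2 with MTOAC, adjusted p = 0.0463, limma). Zfp462 and Zfp521 were each called in 1 of the 6 fits that left out a library.

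Of the lower members that the naming rule picked, 4 more lay near -1 log2. Zfp407, a very large zinc finger protein, had 18.0, 8.64 and 14.4 TPM with vehicle and 5.54, 4.56 and 7.33 with MTOAC (-1.07 log2, adjusted p = 0.0463, limma). Zfp329 had 10.3, 8.59 and 8.60 TPM with vehicle and 4.92, 2.51 and 4.46 with MTOAC (-1.07 log2, adjusted p = 0.0448, limma). Zfp810 had 12.9, 7.5 and 8.06 TPM with vehicle and 4.14, 3.42 and 4.75 with MTOAC (-1.01 log2, adjusted p = 0.0463, limma). In each of them the MTOAC libraries lay below all vehicle libraries. Zfp125 had 29.0, 25 and 24.1 TPM with vehicle but 25.9, 18.5 and 19.9 with CPC and 27.0, 17.3 and 16.6 with AEBDAC, and 17.1, 14.3 and 8.17 with MTOAC (-0.98 log2, adjusted p = 0.0474, limma). Its CPC and AEBDAC libraries overlapped with vehicle, and 49.4% of its 31-base windows occur in another gene. Its gene model is that of a transcribed unprocessed pseudogene, so that it is the 1 member not annotated as protein coding.

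Zfp251, Zfp46 and Zfp646, the members called with AEBDAC, were called with MTOAC as well, at -0.78 (adjusted p = 0.0116, limma), -0.86 (0.0197) and -0.91 log2 (0.0135). Zfp251 had the smallest adjusted p of the called members, and it was called in all 6 fits that left out a library; 7 of the 20 called members were called in none of those fits. Zfp445, which works beside Zfp57 in keeping the methylation of imprinted loci, had 84.3, 65.1 and 64.1 TPM with vehicle and 35.4, 34.7 and 56.3 with MTOAC. These libraries did not overlap (-0.77 ± 0.19 log2, adjusted p = 0.0376, limma). Zfp57 itself had 8.51, 6.41 and 5.71 TPM with vehicle and 8.17, 4.36 and 21.6 with MTOAC, with the third MTOAC library, in which Pou5f1 was also listed above 0, far above the rest (adjusted p = 0.580, limma). Zfp445 and Zfp57 were picked for this role after their values were seen. The other 6 members called lower, Zfp866, Zfp26, Zfp397, Zfp160, Zfp523 and Zfp629, had fold changes between -0.90 and -0.78 log2. Among them the exons of Zfp866 overlap Gm20422 on its own strand and Atp13a1 on the other.

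The 19 members called lower with MTOAC had a median of -0.60 log2 with CPC, -0.77 with AEBDAC and -0.91 with MTOAC. They were chosen on the vehicle libraries that all 3 comparisons share, so these medians are a description and the values with CPC and AEBDAC are no independent support. Vehicle library 1 was the highest vehicle library in 18 of the 19, and MTOAC library 2 the lowest MTOAC library in 14.

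**Figure D3:**
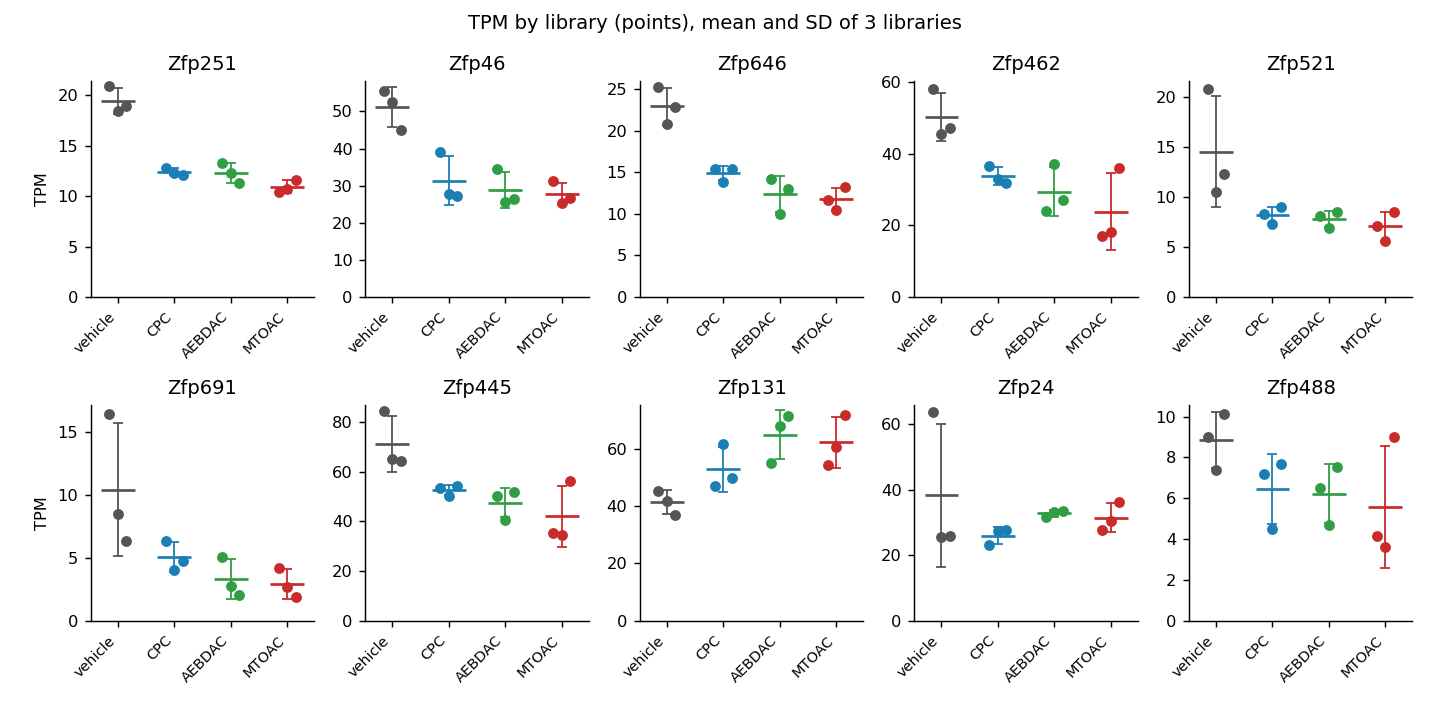
TPM of 10 Zfp members in each library (points; libraries 1 to 3 from left to right) with the mean (line) and SD (bars) of 3 libraries a group. Zfp251, Zfp46 and Zfp646 lie below vehicle in all 9 compound libraries, Zfp131 lies above, and Zfp24 has 1 vehicle library at 63.6 TPM.

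Zfp131, a zinc finger protein with a BTB domain, was the 1 member that rose. It had 45.2, 41.8 and 37.0 TPM with vehicle, 47.0, 61.7 and 49.9 with CPC, 55.1, 68.0 and 71.5 with AEBDAC, and 54.2, 60.6 and 71.6 with MTOAC. All compound libraries lay above all vehicle libraries, and the difference was 0.34 ± 0.15 log2 with CPC (adjusted p = 0.359, limma), 0.63 ± 0.15 with AEBDAC (0.0698) and 0.57 ± 0.15 with MTOAC (0.0492). It was called in none of the 6 fits without 1 library, and with quantile normalization it was called with AEBDAC and MTOAC. Over the compounds together, 3 members (1.67%) had all 9 compound libraries above all vehicle libraries, Zfp131, Zfp592 and Zfp91, beside 1.34% of all tested genes and 1.65% of the other genes of 5 TPM. In the other direction 33 members (18.3%) had all 9 below, beside 10.1% and 11.6%. Among the 33 are Zfp329 and Zfp760, which passed the level rule only through vehicle.

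Several Zfp proteins have known roles, and they were grouped in 3 lists. Of the glial and neural list 9 genes were tested, all of them members, and with MTOAC 2 fell (Zfp462 and Zfp521) and 0 rose, where 5.75% of all tested genes and 7.05% of the other genes of 5 TPM were called lower; none was called with CPC or AEBDAC. The list's median was -0.16 log2 with MTOAC, against -0.22 for all tested genes. Zfp24, which is required for myelination, had 63.6, 25.4 and 26.0 TPM with vehicle, 23.1, 27.3 and 27.6 with CPC, 31.6, 33.1 and 33.5 with AEBDAC, and 27.8, 30.4 and 36.2 with MTOAC. Its first vehicle library was the highest of all 12, the other vehicle libraries were among the lowest, and no comparison passed (adjusted p = 0.794 with MTOAC, limma). Zfp488, a partner of Olig2 in oligodendrocyte differentiation, had 8.99, 7.40 and 10.1 TPM with vehicle, 7.21, 4.47 and 7.67 with CPC, 6.49, 4.68 and 7.51 with AEBDAC, and 4.13, 3.6 and 9.0 with MTOAC. The groups overlapped and it did not pass (-0.66 ± 0.31 log2 with MTOAC, adjusted p = 0.213, limma). The other 5, Zfp365, Zfp423, Zfp503, Zfp609 and Zfp703, lay between -0.21 and 0.51 log2 with MTOAC, none of them called.

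The list of RNA and ribosome proteins held 8 members, and none was called with any compound. With MTOAC 5.75% of all tested genes were called lower and 0.791% higher. Nearest to the threshold was Zfp326, a component of the complex that couples transcription to splicing, with 26.8, 27.1 and 21.8 TPM with vehicle, 17.9, 15.2 and 20.5 with CPC, 17.2, 13.2 and 12.1 with AEBDAC, and 10.9, 9.17 and 20.0 with MTOAC. Every compound library lay below every vehicle library (-0.93 ± 0.25 log2 with MTOAC, adjusted p = 0.0506, limma). Zfp598, the ubiquitin ligase that senses collided ribosomes, had means of 21.0 ± 2.07 TPM with vehicle (SD, n = 3), 24.5 ± 1.24 with CPC, 25.1 ± 1.61 with AEBDAC and 23.2 ± 2.25 with MTOAC. Zfp622 and Zfp593, which act in the maturation of the large ribosomal subunit, differed from vehicle with MTOAC by -0.15 ± 0.15 and -0.10 ± 0.17 log2 (SE). None of these differences passed the test.

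Of the chromatin and promoter proteins, 13 were members, and with MTOAC 1 rose (Zfp131) and 0 fell, beside 0.791% and 5.75% of all tested genes. The median of these members was -0.09 log2 with MTOAC, against -0.22 for all tested genes. Over all 17 tested genes of this list it was 0.09 log2. Zfp592, Zfp687 and Zfp532 belong to 1 chromatin module with ZMYND8, and their values went different ways. Zfp592 had 10.3, 10.6 and 8.58 TPM with vehicle, 14, 13.4 and 17.8 with CPC, 13.9, 16.5 and 18.9 with AEBDAC, and 11.5, 13.2 and 15.8 with MTOAC, all compound libraries above vehicle (0.68 ± 0.18 log2 with AEBDAC, adjusted p = 0.0800, limma). Zfp687 had means of 31.7 ± 1.45 TPM with vehicle (SD, n = 3) and 23.3 ± 2.06 with MTOAC, and Zfp532 31.6 ± 2.28 and 21.6 ± 3.47; neither passed (adjusted p = 0.0689 and 0.0807, limma). Zfp384, which binds promoters, had means of 16.6 ± 3.26, 23.3 ± 5.60, 29.0 ± 4.94 and 24.3 ± 1.21 TPM (SD) with vehicle, CPC, AEBDAC and MTOAC and was not called. Zfp91, a ubiquitin ligase, had means of 51.2 ± 4.16 TPM with vehicle and 64.4 ± 7.36 with MTOAC (SD), and was called higher with AEBDAC and MTOAC only after quantile normalization among the fits without a replicate block.

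The KRAB proteins act through co-repressors, and 31 of 32 listed co-repressor genes were tested. None was called with CPC, and 1 fell with AEBDAC, beside 0.883% of all tested genes. With MTOAC 3 fell and 1 rose, beside 5.75% and 0.791% of all tested genes, and the list's median was -0.18 log2, against -0.22 for all tested genes. Chd4, the remodeller of the NuRD complex, had means of 119 ± 14 TPM with vehicle (SD, n = 3), 75.5 ± 7.03 with AEBDAC and 64.1 ± 4.2 with MTOAC, or -0.65 and -0.88 log2 (adjusted p = 0.0382 and 0.00677, limma). Cbx1, a heterochromatin protein 1, had -0.49 log2 with MTOAC (adjusted p = 0.0240, limma), and Ehmt1, a histone H3 methyltransferase, -0.70 log2 (0.0427). Mta1, another NuRD subunit, rose by 0.58 log2 (0.0334). Trim28 had means of 230 ± 39.2 TPM with vehicle, 173 ± 15.4 with CPC, 177 ± 11.8 with AEBDAC and 171 ± 8.44 with MTOAC, and Setdb1 25.4 ± 3.46, 20.6 ± 0.893, 20.2 ± 1.35 and 19.9 ± 3.02 TPM (SD). Neither passed in any comparison (adjusted p = 0.0707 and 0.187 with MTOAC, limma).

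Set against all tested genes and against other genes of like level, members differed by small amounts. The median of the members minus that of all tested genes was -0.04 log2 with CPC, -0.06 with AEBDAC and -0.07 with MTOAC. Beside the other genes of 5 TPM, the members' median was -0.21 against -0.16 log2 with CPC. It was -0.22 against -0.14 with AEBDAC and -0.29 against -0.20 with MTOAC. With MTOAC the median between 5 and 10 TPM was -0.35 log2 in members and -0.30 in the other genes, between 10 and 20 TPM -0.31 and -0.25, between 20 and 50 TPM -0.24 and -0.22, and from 50 TPM on, where only 11 members lay, -0.27 and -0.09. Members called lower were 9.59%, 11.7%, 11.1% and 9.09% of these bins, and other genes 6.31%, 7.35%, 8.57% and 5.52%. With CPC the members' median was above that of the other genes in the lowest and the highest bin, by 0.02 and 0.05 log2, and differed by -0.06 and -0.04 in the bins between. With AEBDAC it was above that of the other genes between 20 and 50 TPM, by 0.03 log2, and differed by -0.03, -0.10 and -0.11 from 5 to 10, from 10 to 20 and from 50 TPM on. The whole table was shifted too: the median tested gene differed from vehicle by -0.17, -0.16 and -0.22 log2 with CPC, AEBDAC and MTOAC, and with quantile normalization, which removes this shift, 97 of 180 members were negative with MTOAC and their median was -0.05 log2.

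**Figure D4:**
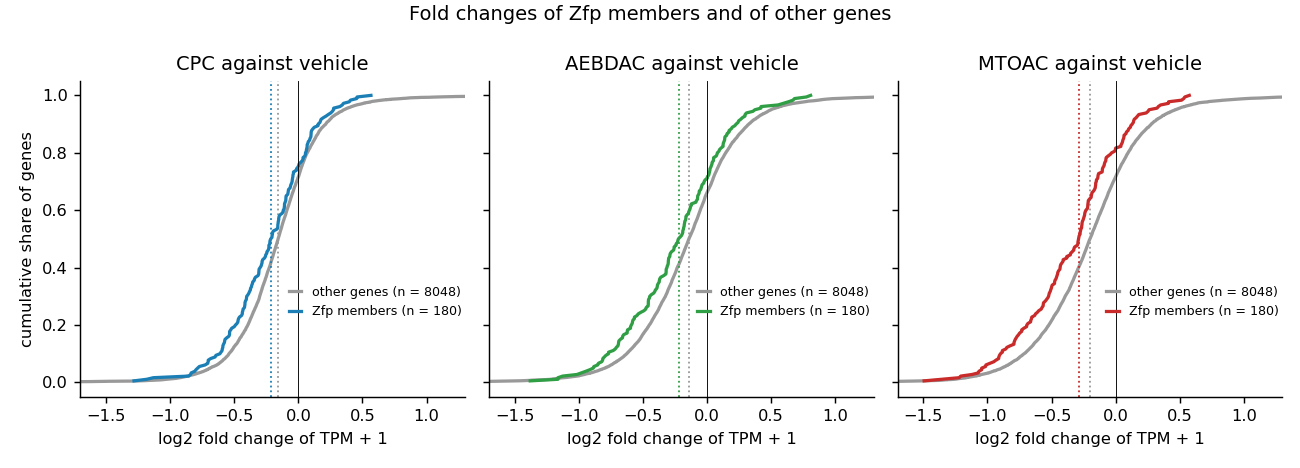
Cumulative share of genes by log2 fold change of TPM + 1 for the 180 Zfp members (coloured) and the 8048 other genes averaging 5 TPM or more (grey), with dotted lines at the medians. The members' median lies left of the other genes' median with each compound: -0.21 against -0.16 with CPC, -0.22 against -0.14 with AEBDAC and -0.29 against -0.20 with MTOAC.

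The genes share features that the rule did not use. In GENCODE M21 (GRCm38) all 180 had a gene model and 179 were protein coding, all but the pseudogene Zfp125. Chromosome 7 held 40 of them (22.2%, against 7.46% of tested genes), chromosome 8 held 18 and chromosome 17 held 17, and 90 lay within 100 kb of another Zfp gene. Their median exonic length was 5.21 kb against 4.48 kb for tested genes, and their median span 16.8 kb against 23.4 kb. Sequence shared between copies limits the counting of some: 40 members had more than 10% of their 31-base windows in another gene, 9 more than 50%, and 20 overlapped an exon of a coding gene on the other strand. With MTOAC the median fold change was -0.35 log2 in the 40 and -0.29 in the other 140, and it was -0.35 log2 in the 90 members near another Zfp gene and -0.26 in the other 90. These subsets were chosen with results known and carry no test.

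Members with more exonic sequence had lower median fold changes. Split in 3 equal groups of 60 by exonic length, the median with MTOAC was -0.22 log2 from 1.26 to 4.02 kb, -0.28 from 4.09 to 6.70 kb and -0.44 from 6.72 to 15.8 kb. Called lower were 3 members (5%; Zfp691, Zfp882 and Zfp125), 5 (8.33%; Zfp251, Zfp46, Zfp276, Zfp866 and Zfp810) and 11 members (18.3%), beside 7.83%, 7.55% and 5.36% of the other genes of 5 TPM. In the other genes of 5 TPM with the same length limits the medians were -0.20, -0.21 and -0.18 log2. With AEBDAC the members' medians were -0.18, -0.21 and -0.30 log2, and with CPC -0.12, -0.22 and -0.26. These comparisons share the vehicle libraries, and the order was found after the values were seen and is given with no test.

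**Figure D5:**
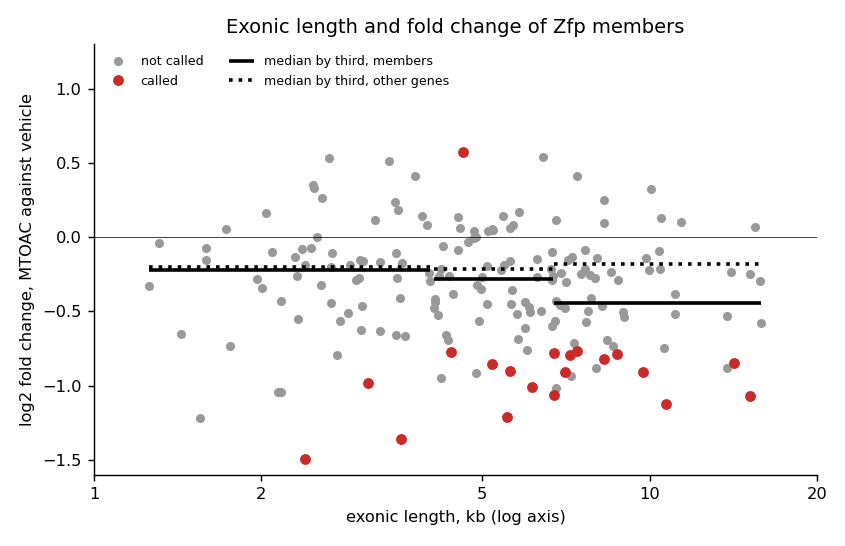
Exonic length (kb, log axis) and log2 fold change of TPM + 1 with MTOAC for the 180 Zfp members; red points are the 20 called members. Solid lines mark the members' median in each length group (-0.22, -0.28 and -0.44 log2) and dotted lines that of other genes averaging 5 TPM or more in the same length range (-0.20, -0.21 and -0.18).

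Between compounds no member was called, in 3 pairs compared and 540 tests, and all adjusted p were 1. AEBDAC against CPC, MTOAC against CPC and MTOAC against AEBDAC each gave 0 members lower and 0 higher, as they did for all tested genes (0% lower and 0% higher). At an unadjusted p under 0.05 there were 2, 4 and 5 members. For AEBDAC against CPC 1 was lower and 1 higher (0.556% each), beside 0.758% and 0.9993% of all tested genes. For MTOAC against CPC 4 were lower (2.22%) and 0 higher, beside 2.81% and 0.933%. For MTOAC against AEBDAC 5 were lower (2.78%) and 0 higher, beside 1.999% and 0.558%. Only this last share of lower members was above that of all tested genes. The members were Zfp950 and Zfp28 for AEBDAC against CPC, and Zfp169, Zfp235, Zfp125 and Zfp462 for MTOAC against CPC. For MTOAC against AEBDAC they were Zfp169, Zfp106, Zfp125, Zfp706 and Zfp532, and all were named after their values were seen. The largest of these differences was Zfp169, with 3.46, 2.66 and 1.89 TPM with MTOAC and 6.98, 4.85 and 11.4 with CPC (-1.21 log2, unadjusted p = 0.00505, adjusted p = 1, limma). Those libraries did not overlap, while the vehicle libraries (8.09, 5.88 and 3.72 TPM) overlapped with CPC. The median 95% interval of a member, not adjusted for the number of tests, reached 0.45 log2 to each side, or 1.37-fold. The missed threshold does not show that compounds with and without an aromatic ring acted alike. The median difference of the members was -0.01 log2 for AEBDAC against CPC, -0.10 for MTOAC against CPC and -0.08 for MTOAC against AEBDAC, each compound at its own IC75. For all tested genes it was 0.01, -0.05 and -0.06 log2 in the same pairs.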

How the data were processed

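Poly(A) RNA was sequenced from 12 libraries, 3 per group, in pairs of 150 bp reads, 20 M or more for each library, per the labels' protocols. The authors deposited TPM per gene symbol. Per the submitters' processing notes Salmon and mm10 were used, with its version and the annotation not given in the sources used here. TPM keep no depth, and a rise of abundant transcripts lowers all others. Library totals were 772637 to 797758 TPM.

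The members and lists were chosen with earlier results of these data known. The 12009 genes that reached 1 TPM in 3 libraries or more were tested with limma 3.58.1 in R 4.3.3 (trend, robust) on log2(TPM + 1), a scale that understates changes of low genes. All 12 libraries entered 1 fit of 4 group means; p-values are two-sided, adjusted by Benjamini and Hochberg over all tested genes of a comparison, with calls under 0.05. The smallest p of an exact permutation test with 3 libraries a side is 0.1. The fit was tested on simulated data. Named were, by rule, the 8 lowest and 8 highest called members per compound, the 5 most abundant, the role lists, the genes at the 5 TPM limit, up to 4 called members a direction between compounds, and the called co-repressors with Trim28 and Setdb1; others are said to be chosen after their values were seen or are named to complete a count.

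Replicate numbers come from the sample titles. Deviations from group means of same-numbered libraries correlated, across genes, at 0.339, 0.305 and 0.234 (vehicle with CPC), at 0.281, 0.423 and 0.229 (CPC with AEBDAC) and at 0.332, 0.359 and 0.296 (AEBDAC with MTOAC), each above the pairing limit of 0.1, a limit that not all correlations of the 3 other comparisons reached. Gene models came from GENCODE M21 and promoters from RefSeq (GRCm38.p6). Alternatives were pseudocounts of 0.5 and 2, other filters, quantile normalization, rescaling without mitochondrially encoded genes, the replicate block, only the groups compared, leaving out each library and, added after seeing the data, members with at most 10% shared windows.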

Additional observations from a re-analysis of the deposited data

How the results depend on the processing

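The counts of called members and their balance moved. With CPC the count was 0 as reported, 4 with the replicate block (4 lower) and 1 with the block and quantile normalization (1 higher). With the block 1.25% of all tested genes were called lower, and with the block and quantile normalization 0.658% were called higher. With AEBDAC the count was 3 as reported, 0 without a filter on low values, 5 with quantile normalization (2 lower, 3 higher), 0 with only the groups compared, and 0 to 2 when 1 library was left out. Of all tested genes, 0.115% were called lower without a filter, and 0.716% lower and 0.799% higher with quantile normalization. With only the groups compared 0% were called lower, and 0.0250% to 0.658% when 1 library was left out. With MTOAC the count was 20 as reported, 5 without a filter, 7 with quantile normalization (5 lower, 2 higher), 0 with only the groups compared, and 1 to 15 when 1 library was left out. Of all tested genes, 1.68% were called lower without a filter, and 1.81% lower and 1.77% higher with quantile normalization. With only the groups compared 0.0833% were called lower, and 0.991% to 4.38% when 1 library was left out. Between compounds the count of members was 0 in all.

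In the comparisons with vehicle whose numbers did not meet the limit for pairing, the replicate block gave 21 called members with AEBDAC (18 lower, 10% of members; 3 higher), beside 7.05% and 1.87% of all tested genes, and 44 with MTOAC (43 lower, 1 higher), beside 13.8% and 2.04%, among them all 20 of the reported calls. With the block and quantile normalization it gave 17 (11 lower, 6 higher), beside 3.50% and 4.06%, and 24 (17 lower, 7 higher), beside 4.78% and 5.16%. The block left the pairs of compounds at 0 calls.

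The members' median relative to all tested genes stayed negative; without a filter, which tests 20884 genes, it was -0.15, -0.17 and -0.22 log2 with CPC, AEBDAC and MTOAC. All 20 members called with MTOAC kept their sign. Their MTOAC libraries did not overlap with vehicle, so leaving out a library could not have changed it. Without members that share over 10% of their windows, 140 remained. Of these, 16 were called lower with MTOAC (11.4%) and 1 higher, beside 5.75% and 0.791% of all tested genes. The depth of the libraries is unknown, and 3 libraries a group limit the precision.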

Other observations

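The 194 Zfp symbols under 5 TPM were not part of the comparisons above; 11 of them were at 0 in every library and 128 passed the filter. Their fold changes were negative for 103 with CPC, 110 with AEBDAC and 114 with MTOAC, with medians of -0.28, -0.37 and -0.42 log2, against -0.20, -0.21 and -0.25 for the 3653 other tested genes under 5 TPM. In limma 5 were called lower with MTOAC (3.91%, beside 2.71% of those other genes and 5.75% of all tested genes) and 0 higher: Zfp14 (-0.82 log2, adjusted p = 0.0470), Zfp324 (-1.27, 0.0463), Zfp558 (-1.29, 0.0409), Zfp784 (-1.40, 0.0463) and Zfp963 (-0.93, 0.0444), named after their values were seen. Zfp784 had 3.61, 1.95 and 1.87 TPM with vehicle and 0.554, 0.371 and 0 with MTOAC. Without its vehicle libraries Zfp784 would not have passed the filter, so its lower value is in part fixed by that filter. Zfp324 had 7.23, 5.5 and 5.85 TPM with vehicle and 2.65, 1.23 and 2.21 with MTOAC. Zfp963 had 5.79, 4.46 and 4.88 TPM with vehicle and 2.22, 2.60 and 1.72 with MTOAC. In all 5 called symbols the MTOAC libraries lay below all vehicle libraries. This was so for 32.0% of the 128, beside 18.3% of the other tested genes under 5 TPM.

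Related families were taken at a mean of at least 5 TPM. With MTOAC the median was -0.34 log2 in 10 SCAN zinc finger genes and -0.27 in 14 Zfp symbols that end in a letter. Both were close to the members' median of -0.29 log2. It was -0.11 log2 in 24 BTB and in 11 CCCH zinc finger genes, and 0.31 in 11 Klf and Sp genes. These are descriptions with no test.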
